A study of Mus musculus with 12 samples.

Results

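Tcf7, Lef1, Satb1, Bach2, Id2, Id3, Tcf3 and Tcf12 are the genes of 8 transcription factors and their inhibitors that are known for their part in keeping T cells naive or steering them to effector fates. They were chosen by name, as the TCF/LEF, BACH2, SATB1, Id and E protein group, out of 26608 genes listed in the count tables. All 8 were listed, and all 8 passed the filter on low counts, which left 16035 genes for testing. RNA was sequenced from CD4+ YFP(FOXP3)- T cells, which are CD4+ T cells without the YFP reporter of FOXP3, taken from the spleen together with the inguinal and cervical nodes. Control mice (Foxp3Cre WT) carried the Foxp3-driven Cre recombinase with intact Tet2 and Tet3. Foxp3-Cre Tet2/3 fl/fl mice (double knockout, DKO) carried the same Cre and loxP-flanked Tet2 and Tet3, and were divided by the total cell number of spleen and nodes into DKO-moderate and DKO-severe. All mice were 14 weeks old, and each library came from 1 mouse, with 4 WT, 4 DKO-moderate and 4 DKO-severe libraries.

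Because Cre is driven from the Foxp3 gene, deletion takes place in cells that express or once expressed FOXP3. This Cre is also known to act at random in a few other blood-forming cells. The sorted DKO population is therefore a mixture of former Treg cells that lost FOXP3 and of conventional CD4+ T cells, and in such bulk samples fewer cells of a type and less RNA per cell cannot be told apart. Counts of Tet2 and Tet3 covered the whole genes, exons outside the deleted parts included, so they do not check the deletion. Tet2 stood at 43.3 to 62.2 CPM (read counts relative to the TMM-scaled library total) in WT, 34.8 to 57.8 CPM in DKO-moderate and 56.7 to 65.8 CPM in DKO-severe, and Tet3 at 167.4 to 210.4, 90.3 to 184.7 and 87.8 to 102.5 CPM. Summed over 8 T cell identity genes, libraries held 4937 to 5639 CPM in WT, 5041 to 5624 CPM in DKO-moderate and 3923 to 4573 CPM in DKO-severe, with Cd4 at 864 CPM or more in each. Reads on genes ranged from 29254260 to 42133536 per library. Summed over 9 neutrophil genes, libraries of DKO-severe held 8.93 to 2047 CPM against at most 1.90 CPM in WT, with the highest values in DKO-severe 1 and DKO-severe 2, and 9 B cell genes summed to 228.3 CPM in WT 3 against at most 15.2 CPM in the other WT libraries. DKO-severe libraries held 70.4 to 396.9 CPM of the same B cell genes. Summed levels in WT and DKO-severe were 8.91 to 176 and 83.3 to 474.1 CPM for 6 monocyte and macrophage genes, 49.1 to 146.2 and 188.8 to 351.2 CPM for 5 plasma cell genes, and 0.776 to 9.92 and 11.5 to 18.5 CPM for 5 dendritic cell genes. They were 0.201 to 19.3 and 11.1 to 46.1 CPM for 4 erythroid genes, 13.9 to 26.5 and 12.04 to 103.2 CPM for 4 NK cell genes, and 16.8 to 26.7 and 1.03 to 13.2 CPM for 2 CD8 T cell genes. In DKO-moderate the monocyte and macrophage, plasma cell and dendritic cell lists summed to 15.3 to 51.95, 75.7 to 125.1 and 1.54 to 2.91 CPM. The erythroid, NK cell and CD8 T cell lists summed there to 1.22 to 11.4, 28.9 to 41.3 and 3.13 to 8.52 CPM. All DKO-moderate libraries lay above all WT libraries in the NK cell list and below them in the CD8 T cell list. The part of these last 6 lists in the members' differences was not tested. Transcripts of 4 Y-linked genes were at or near 0 in WT 2, DKO-moderate 2, DKO-moderate 4 and DKO-severe 3 and at 369.8 CPM or more in the other 8 libraries.

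TCF1 and LEF1, the products of Tcf7 and Lef1, are HMG-box proteins that bind the same DNA motif, recruit Groucho/TLE corepressors or β-catenin, and are needed for T cell development and for the early steps of T follicular helper (Tfh) differentiation. SATB1 folds chromatin and recruits chromatin modifiers, and BACH2 is a basic leucine zipper repressor that pairs with small MAF proteins and holds back effector genes. E proteins, E2A from Tcf3 and HEB from Tcf12, bind E-box motifs as dimers, while ID2 and ID3 lack the basic region that contacts DNA and hold E proteins off it.

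Lef1, Satb1 and Bach2 were lower in both DKO groups than in WT and lower again in DKO-severe than in DKO-moderate. TET2 and TET3 oxidize 5-methylcytosine, mostly at CG dinucleotides, and the 250 bases ahead of a RefSeq start of each of these 3 genes are shown here for that reason, with every CG in capitals and the rest in lower case. They are read 5′ to 3′ on the gene's own strand in build GRCm38.p6, at chr3:131110073-131110322 (plus strand) for Lef1, chr17:51833291-51833540 (minus strand) for Satb1 and chr4:32417185-32417434 (plus strand) for Bach2.
Lef1: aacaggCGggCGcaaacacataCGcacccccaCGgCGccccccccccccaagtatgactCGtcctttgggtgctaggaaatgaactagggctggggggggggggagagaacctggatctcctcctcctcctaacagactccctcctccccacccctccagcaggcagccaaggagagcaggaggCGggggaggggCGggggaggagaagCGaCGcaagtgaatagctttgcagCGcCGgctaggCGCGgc
Satb1: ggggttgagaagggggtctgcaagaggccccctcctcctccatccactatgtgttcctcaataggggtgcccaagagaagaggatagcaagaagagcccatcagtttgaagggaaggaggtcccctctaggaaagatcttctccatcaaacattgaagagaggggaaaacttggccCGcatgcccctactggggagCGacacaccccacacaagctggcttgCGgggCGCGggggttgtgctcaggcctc
Bach2: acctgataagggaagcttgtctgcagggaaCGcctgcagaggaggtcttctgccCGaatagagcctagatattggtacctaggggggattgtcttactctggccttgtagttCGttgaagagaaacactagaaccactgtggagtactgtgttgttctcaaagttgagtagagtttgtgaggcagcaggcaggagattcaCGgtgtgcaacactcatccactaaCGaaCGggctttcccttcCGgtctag
The Lef1 window held 14 CG dinucleotides, the Bach2 window 7 and the Satb1 window 5, while the median over 32851 RefSeq promoter windows of the same length was 6, with quartiles of 2 and 16. Windows of other annotated Satb1 starts held 3, 6, 12 and 41, the last at chr17:51832648-51832897, and those of other Lef1 starts 5, 6 and 11. The Bach2 start lies 178631 bases inside the gene as the GENCODE annotation draws it. The same windows of Tcf7, Tcf12, Id2, Id3 and Tcf3, not printed, held 37, 38, 18, 18 and 18. Windows of other annotated starts held 15 for Tcf7, and 0 and 39 for Tcf12. The TCF/LEF motif CTTTGAT was found on neither strand of any member's window, as in most promoters (3.21% of all windows hold it). The E-box CANNTG reads the same on both strands in its fixed letters. It was present once in the printed Lef1 window and absent from those printed for Satb1 and Bach2, against 66.2% of all windows that hold it. DNA methylation was not analysed here, and these matches describe letters only.

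The first question was how far these regulators differed between the sorted cells of DKO and WT mice, and between the stages of disease. In DKO-severe against WT, 4 of the 8 genes fell (Tcf7, Lef1, Satb1 and Bach2), Id2 rose, and Id3, Tcf3 and Tcf12 did not pass the test (edgeR quasi-likelihood test, Benjamini-Hochberg adjusted p under 0.05). In that comparison 52.6% of all tested genes passed, 26.6% higher and 25.9% lower, so the members' 5 calls stand against a background in which most genes moved. In DKO-moderate against WT, Lef1, Satb1 and Bach2 fell and Id2 rose, where 17.1% of tested genes passed, 12.3% higher and 4.74% lower. In DKO-severe against DKO-moderate, Tcf7, Lef1, Satb1 and Bach2 fell and none rose, where 20.1% passed, 9.41% higher and 10.7% lower. Both DKO groups were compared with the same 4 WT libraries.

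**Figure D1:**
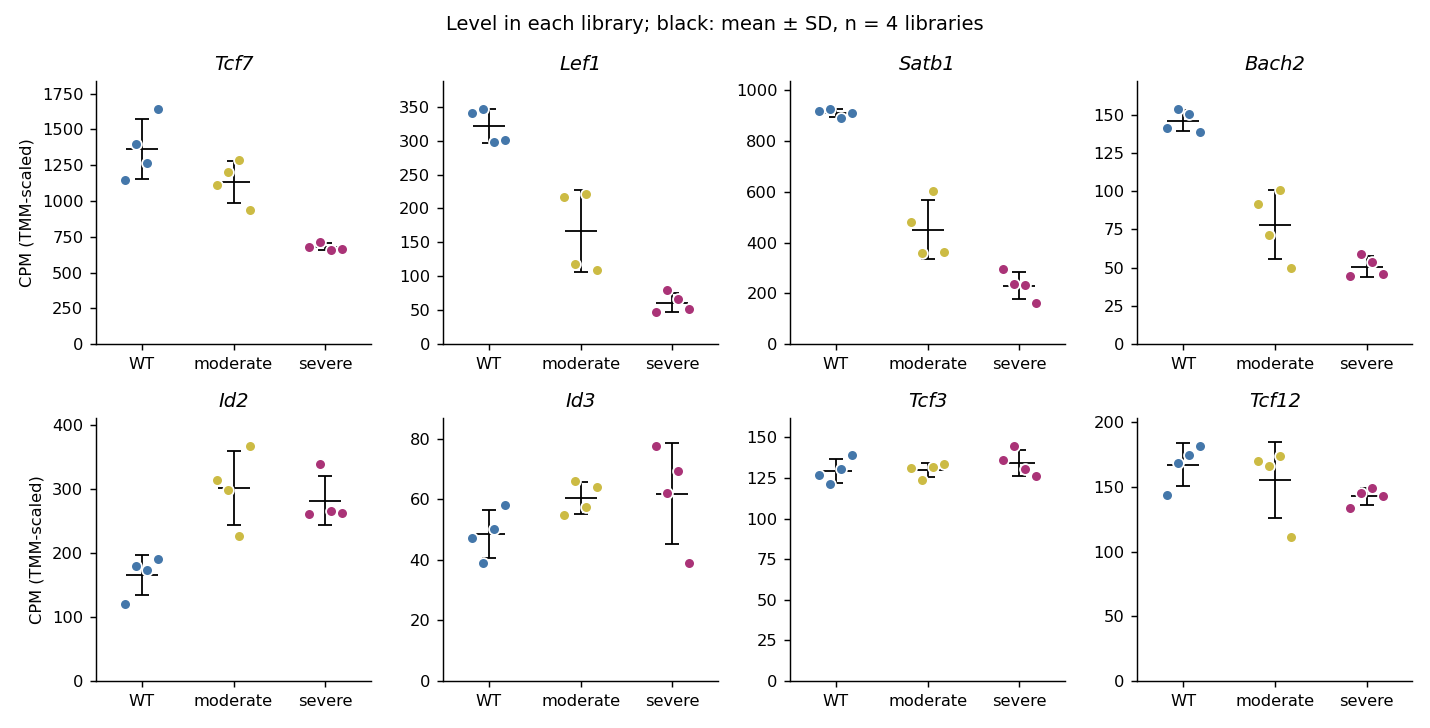
Level of each of the 8 genes in every library (TMM-scaled CPM on a linear axis from 0), by group. Coloured points are single libraries, and black bars give the mean and SD of 4 libraries. Lef1, Satb1 and Bach2 step down from WT to DKO-moderate to DKO-severe, Tcf7 is separate only in DKO-severe, Id2 is higher in both DKO groups, and Tcf3 stays near 130.1 CPM.

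Tcf7 had 1149.4, 1396.2, 1261.8 and 1640.6 CPM in the WT libraries, 1109.8, 1200.1, 1283.1 and 939.6 CPM in DKO-moderate and 677.9, 716.3, 659.8 and 665.5 CPM in DKO-severe. The 4 DKO-severe libraries lay close together and below every other library, while DKO-moderate and WT overlapped. Against WT, Tcf7 fell by 1.0 on the log2 scale in DKO-severe (SE 0.12, edgeR adjusted p = 4.461e-05), to 49.9% of the WT mean. The difference of DKO-moderate from WT was -0.27 (95% interval -0.53 to -0.004, edgeR adjusted p = 0.149). Between DKO-moderate and DKO-severe it fell by 0.74 (SE 0.12, edgeR adjusted p = 0.00415).

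Lef1 had 341.0, 346.2, 298.6 and 300.6 CPM in WT, 216.6, 118.6, 221.0 and 109.4 CPM in DKO-moderate and 48.1, 79.5, 66.4 and 51.5 CPM in DKO-severe. No DKO-moderate library reached the lowest WT library or came down to the highest DKO-severe library, and within DKO-moderate the values lay in an upper and a lower pair. On the log2 scale Lef1 fell by 0.95 in DKO-moderate (SE 0.23, edgeR adjusted p = 0.0163) and fell by 2.39 in DKO-severe (SE 0.25, edgeR adjusted p = 1.655e-05), to 51.7% and 19.1% of the WT mean. The step from DKO-moderate to DKO-severe was -1.44 (SE 0.24, edgeR adjusted p = 0.00416). Lef1 lost more than Tcf7 in each comparison by these estimates, although that difference between genes was not tested: per kilobase of exon, the ratio of Tcf7 to Lef1 had a median of 13.8 in WT (11.3 to 18.3), 24.1 in DKO-moderate (17.2 to 33.9) and 38.3 in DKO-severe (30.2 to 47.2). The size of this ratio, though not its change between groups, depends on the length used. By the longest coding transcript, the WT means were 551.2 CPM per kb for Tcf7 and 92.4 for Lef1.

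Satb1 was the steadiest member in WT, with 916.7, 925.1, 888.8 and 908.9 CPM, a coefficient of variation of 1.71%. It had 479.2, 357.4, 603.2 and 361.8 CPM in DKO-moderate and 294.6, 236.0, 232.3 and 161.0 CPM in DKO-severe, and none of the 3 groups overlapped. Satb1 fell by 1.01 in DKO-moderate (SE 0.19, edgeR adjusted p = 0.00395) and fell by 1.98 in DKO-severe (SE 0.19, edgeR adjusted p = 1.362e-05). From DKO-moderate to DKO-severe it fell by 0.96 (SE 0.19, edgeR adjusted p = 0.00692). The means of the DKO groups were 49.5% and 25.4% of the WT mean.

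Bach2 had 141.4, 153.5, 150.6 and 138.8 CPM in WT, 91.5, 71.3, 100.5 and 49.5 CPM in DKO-moderate and 44.6, 59.1, 53.7 and 45.6 CPM in DKO-severe. Both DKO groups lay below WT without overlap, but DKO-moderate 4 lay inside the DKO-severe range. Bach2 fell by 0.90 in DKO-moderate (SE 0.18, edgeR adjusted p = 0.00566) and fell by 1.53 in DKO-severe (SE 0.18, edgeR adjusted p = 4.221e-05). The step between the DKO groups was the least secure call among the members: it was -0.62 (SE 0.18, edgeR adjusted p = 0.0303), and the exact permutation test on CPM gave p = 0.086. Leaving out any of 5 single libraries (DKO-moderate 1 or 3, or DKO-severe 1, 3 or 4) moved its edgeR adjusted p to between 0.0703 and 0.100, with differences of -0.61 to -0.48. The transcript Bach2os runs opposite to Bach2, and the authors counted by strand.

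Over the same exact permutation test, two-sided with 4 libraries against 4, the smallest p possible is 0.029. Lef1 and Satb1 reached it in all 3 comparisons, Bach2 and Id2 in both comparisons with WT, and Tcf7 in both comparisons with DKO-severe. Groups that did not overlap in CPM were common among all tested genes: 51.9% in DKO-severe against WT, 24.8% in DKO-moderate against WT and 21.3% in DKO-severe against DKO-moderate.

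**Figure D2:**
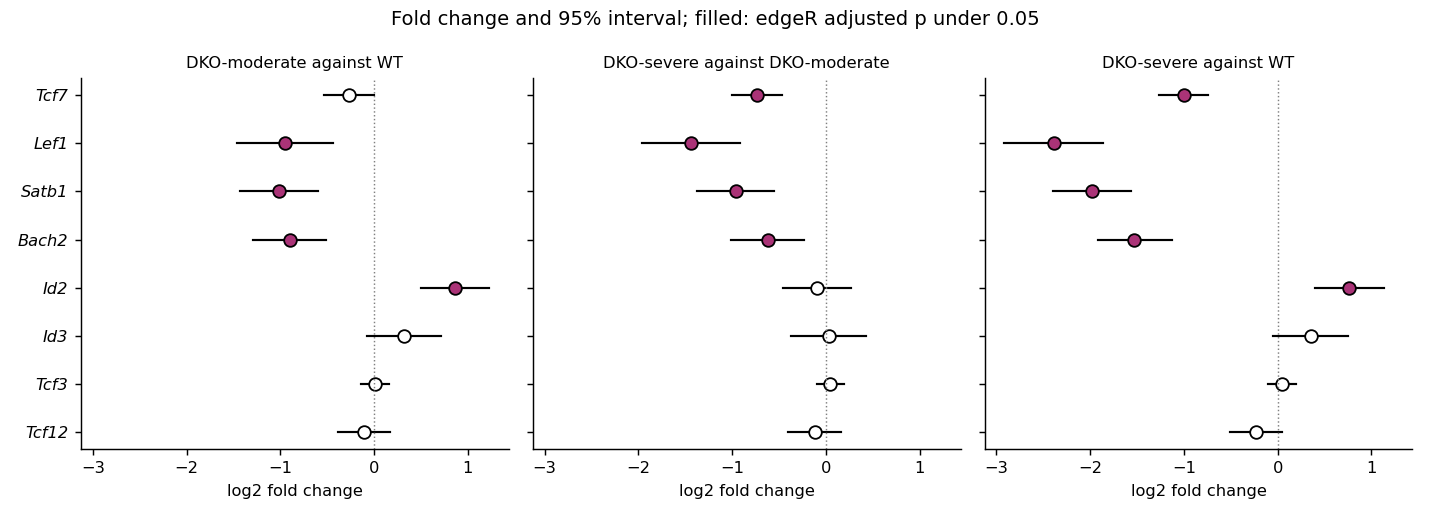
Log2 fold change of the 8 genes in each comparison (horizontal axis), with lines for the 95% interval. Filled points passed an edgeR adjusted p of 0.05. Lef1 in DKO-severe against WT has the lowest point at -2.39, and the intervals of Tcf3 stay within -0.14 and 0.20.

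Id2 moved the other way. It had 119.4, 178.6, 173.4 and 190.9 CPM in WT, 313.0, 297.8, 226.9 and 366.8 CPM in DKO-moderate and 259.9, 338.7, 264.8 and 261.6 CPM in DKO-severe. All 8 DKO libraries lay above all WT libraries, while the DKO groups overlapped each other. Id2 was higher than in WT by 0.86 in DKO-moderate (SE 0.17, edgeR adjusted p = 0.00506) and by 0.76 in DKO-severe (SE 0.17, edgeR adjusted p = 0.00251). The difference of DKO-severe from DKO-moderate was -0.10 with a 95% interval of -0.46 to 0.27 (edgeR adjusted p = 0.701).

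Id3, the other inhibitor, had 47.3, 38.8, 50.3 and 58.1 CPM in WT, 54.8, 66.0, 57.3 and 63.9 CPM in DKO-moderate and 77.6, 62.0, 69.1 and 38.8 CPM in DKO-severe. Its groups overlapped in every comparison, and DKO-severe alone reached from the level of the lowest WT library to the highest of all. Its difference from WT was 0.35 in DKO-severe (95% interval -0.05 to 0.75, edgeR adjusted p = 0.129) and 0.32 in DKO-moderate (-0.08 to 0.71, edgeR adjusted p = 0.256). Without DKO-severe 4, the difference in DKO-severe was 0.55 (edgeR adjusted p = 0.00684).

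The E protein genes were the flattest of the group. Tcf3 ranged from 121.6 to 139.2 CPM in WT, 123.9 to 133.9 CPM in DKO-moderate and 126.0 to 144.8 CPM in DKO-severe. Its difference was 0.05 in DKO-severe against WT (95% interval -0.10 to 0.20, edgeR adjusted p = 0.541) and 0.01 in DKO-moderate against WT (-0.14 to 0.16, edgeR adjusted p = 0.958). Tcf12 ranged from 143.7 to 181.8 CPM in WT, 111.3 to 173.7 CPM in DKO-moderate and 133.9 to 149.2 CPM in DKO-severe, with DKO-moderate 4 the lowest library of all. Its difference was -0.23 in DKO-severe against WT (95% interval -0.51 to 0.05, edgeR adjusted p = 0.158). Without DKO-moderate 4 the difference was smaller, at -0.20, and passed the test (edgeR adjusted p = 0.0423). That library is in neither group of this comparison and enters it only through the shared fit. Scaled by library size alone, which lifts the median of all genes by 0.178 in DKO-severe against WT, Tcf3 passed at 0.24 (edgeR adjusted p = 0.018) and stood 0.06 above that median.

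Summed per kilobase of exon, Id2 and Id3 together were 1.86 to 2.40 times as high as Tcf3 and Tcf12 together in WT, with a median of 2.30. The ratio was 2.86 to 4.61 in DKO-moderate (median 3.75) and 3.19 to 3.84 in DKO-severe (median 3.53). Every DKO library had a higher ratio than every WT library, and the DKO groups overlapped. The ratio rests mostly on Id2, since Id3, Tcf3 and Tcf12 did not pass the test against WT. Its size depends on the exon lengths used.

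Levels were compared between genes only per kilobase, with exon lengths from GENCODE. Tcf7 was highest in all 3 groups, at 518.9 CPM per kb in WT, then 431.7 CPM per kb in DKO-moderate and 259.0 CPM per kb in DKO-severe. Id2 followed it at 67.9 CPM per kb in WT, above Satb1 at 47.8, Lef1 at 36.6, Tcf3 at 32.1, Id3 at 27.1, Bach2 at 14.7 and Tcf12 at 10.8, where Lef1 and Tcf3, and Tcf3 and Id3, overlapped in their ranges over libraries. In DKO-severe the order below Tcf7 was Id2 at 115.4, Id3 at 34.6, Tcf3 at 33.2, Satb1 at 12.1, Tcf12 at 9.21, Lef1 at 6.98 and Bach2 at 5.11 CPM per kb. There Id3 and Tcf3, and Tcf12 and each of its neighbours Satb1 and Lef1, overlapped, as did Lef1 and Bach2. The order depends on the length used: by the longest coding transcript, Satb1 (145.7 CPM per kb) and Lef1 (92.4) stood above Id2 (84.1) in WT, and Id2 (142.8) stood above Satb1 (37.0) and Lef1 (17.6) in DKO-severe by that length too.

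**Figure D3:**
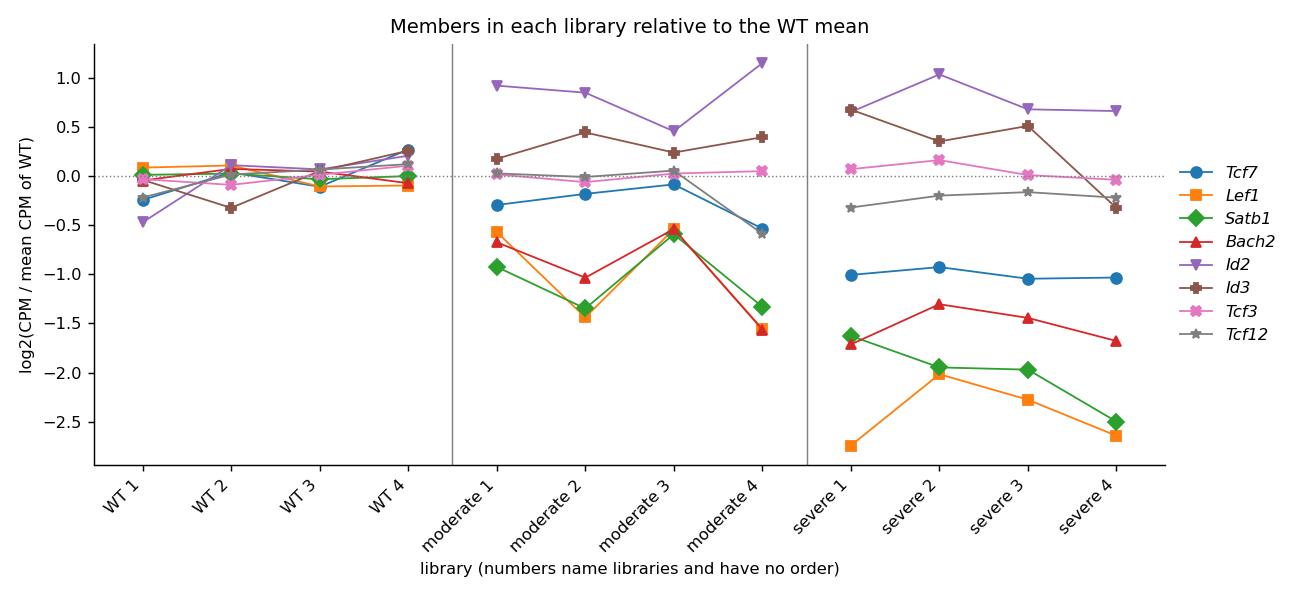
The 8 genes in each of the 12 libraries, as log2 of CPM over the WT mean (vertical axis). Points are libraries, lines join the libraries of a group only to guide the eye, and library numbers have no order. In DKO-moderate 2 and 4, Lef1, Satb1 and Bach2 lie below DKO-moderate 1 and 3, while Id2 is above 0 in all 8 DKO libraries.

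The libraries of DKO-moderate were unlike each other in a shared way. Lef1, Satb1 and Bach2 were lower in DKO-moderate 2 and DKO-moderate 4 than in DKO-moderate 1 and DKO-moderate 3 (for Lef1, 118.6 and 109.4 against 216.6 and 221.0 CPM). The summed level of 10 other genes of naive T cells, such as Ccr7, a chemokine receptor for lymph node entry, split the libraries the same way. It was 2126 and 2482 CPM in libraries 2 and 4 against 4146 and 4315 CPM in libraries 1 and 3. WT libraries held 5375 to 5709 CPM of these genes and DKO-severe libraries 1358 to 2042 CPM, and the part of this list in the members' differences was not tested.

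Libraries 2 and 4 of DKO-moderate were also those without Y-linked transcripts. The part of sex in these values was not tested beyond the fits with Y-linked transcripts given below. The other libraries without them were WT 2, which had the highest Lef1, Satb1 and Bach2 of its group, and DKO-severe 3, which had 66.4, 232.3 and 53.7 CPM of these genes, between the lowest and highest of its group. Among the 8 libraries with Y-linked transcripts (3 WT, 2 DKO-moderate and 3 DKO-severe), no member passed the test in DKO-moderate against WT: the differences were -0.53 for Lef1 (edgeR adjusted p = 0.247), -0.75 for Satb1 (0.140), -0.59 for Bach2 (0.0705) and 0.73 for Id2 (0.146), in a fit that called 386 genes in all. In DKO-severe against WT the same 8 libraries gave 4 lower members and 1 higher, and in DKO-severe against DKO-moderate 4 lower, as with all 12 libraries. Of 15552 genes tested, 7244 and 3298 were called there. With a term for Y-linked transcripts in the fit of all 12 libraries, the members called were again 5, 4 and 4. Of 16035 genes, that fit called 8362 in DKO-severe against WT, 2223 in DKO-moderate against WT and 3185 in DKO-severe against DKO-moderate. In DKO-moderate against WT it gave -0.93 for Lef1 (edgeR adjusted p = 0.0200), -0.98 for Satb1 (0.00605), -0.88 for Bach2 (0.00827) and 0.82 for Id2 (0.0112). The libraries without these transcripts were too few for a comparison of their own.

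Without WT 3, DKO-severe 1 and DKO-severe 2, the libraries with the most B cell or neutrophil transcripts, the members called in DKO-severe against WT were again 4 lower and 1 higher, and in DKO-severe against DKO-moderate Bach2 was no longer called (-0.65, edgeR adjusted p = 0.105). Of 15497 genes tested, 6679 and 2055 were called in these comparisons. With terms for both marker lists in the fit, Tcf7, Lef1, Satb1 and Bach2 remained lower than in WT in DKO-severe, Id2 stood at 0.61 without passing (edgeR adjusted p = 0.179), and no member passed in DKO-severe against DKO-moderate. There Tcf7 stood at -0.75 (edgeR adjusted p = 0.129), Lef1 at -1.14 (0.220), Satb1 at -1.23 (0.116) and Bach2 at -0.46 (0.486), in a fit that called 155 of 16035 genes.

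Over the 12 libraries, log2 CPM of Lef1 and Bach2 had a Pearson correlation of 0.96, Lef1 and Satb1 of 0.95, and Bach2 and Id2 of -0.77. These values describe libraries that share their groups, their depth and their mixture of cells. Relative to the group means, 0.90 was left for Lef1 with Bach2, 0.57 for Lef1 with Satb1 and -0.32 for Bach2 with Id2, and Tcf12, which passed no test between groups, stood at 0.81 with Bach2 and 0.78 with Tcf7.

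Among 9996 tested genes with a mean of at least 5 CPM, those most like a member were named by the same correlation over 12 libraries. They were Tecpr1, Rgmb and Il4ra for Lef1 (each 0.994), Sirt1, Smurf1 and Map3k14 for Bach2 (0.992 to 0.994) and Galnt6, Hsdl1 and Pacs2 for Satb1 (0.987 to 0.988). Tcf7 was most like Tor1aip1, Gm13012 and Kcnh2 (0.953 to 0.961), and Id2 most like Dnajc1, Chst11 and Socs2 (0.935 to 0.944). Tcf12 was most like Asxl2, C330019G07Rik and Erbb2ip (0.952 to 0.970). Id3, with Unc119, Cuedc1 and Slc25a20 (0.811 to 0.896), and Tcf3, with Dram2, Enox2 and Ly6c2 (0.738 to 0.783), had no such close match.

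Partners of TCF1 and LEF1 fell as well in part. Of 16 genes of this list, 9 fell and none rose in DKO-severe against WT, where 25.9% of all tested genes were called lower and 26.6% higher, with a median of -0.39 against -0.005 over all tested genes. The corepressor Tle1 fell from 15.4 ± 1.38 CPM in WT to 2.19 ± 1.08 CPM in DKO-severe (SD, n = 4), a log2 difference of -2.81 (SE 0.42, edgeR adjusted p = 0.000202), and its relative Tle4 stood at -0.61. Tle3, another relative, had a mean of 245.2 CPM in WT and 259.2 CPM in DKO-severe (0.08, edgeR adjusted p = 0.514). Neither Tle3 nor Tle2 (-0.19) passed there. The β-catenin cofactors Bcl9l and Bcl9 stood at -1.06 and -0.88, and the destruction complex genes Axin1, Gsk3b and Apc at -0.63, -0.58 and -0.43, all past the threshold. Ctnnb1, which encodes β-catenin itself, stood at 0.16 and Axin2, a known target of the pathway, at -0.19, and neither passed. In DKO-moderate against WT only Bcl9 (-0.58) fell and only Tle3 (0.36) rose, where 4.74% of all tested genes fell and 12.3% rose.

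Of 8 genes linked to TCF1 and LEF1 in Tfh differentiation, 5 rose and 2 fell in DKO-severe against WT, where 26.6% of all tested genes rose and 25.9% fell. Icos, a costimulatory receptor of Tfh cells, had 128.5 ± 20.3 CPM in WT, 520.7 ± 188.2 CPM in DKO-moderate and 994 ± 237 CPM in DKO-severe (SD, n = 4), and its log2 differences from WT were 2.02 and 2.95. Bcl6, the lineage factor of Tfh cells, rose by 1.27 and 2.27, the B cell zone receptor Cxcr5 by 1.89 and 2.62, and Slamf6 by 1.29 and 1.52 in DKO-moderate and DKO-severe. Ascl2 rose by 2.63 in DKO-severe at a low level (5.66 CPM). Il6ra and Il6st, the chains of the IL-6 receptor, fell in DKO-severe (-0.99 and -0.91), and Prdm1, the antagonist of Bcl6, stood at 0.03 and did not pass. B cells also express Bcl6 and Cxcr5, and their own markers stood at 70.4 to 396.9 CPM in DKO-severe. The part of B cells in these rises was not tested.

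**Figure D4:**
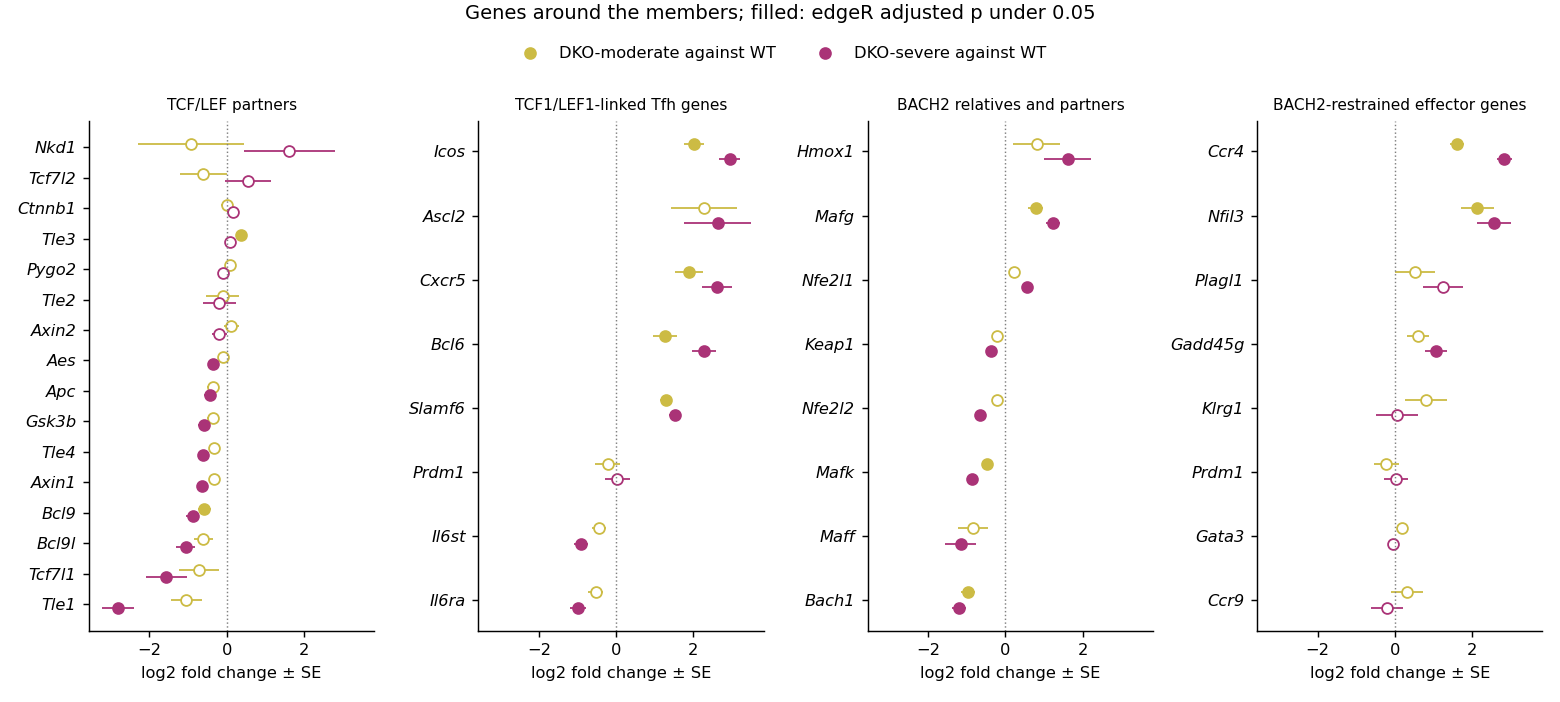
Log2 fold change against WT (horizontal axis) of genes around TCF1/LEF1 and BACH2 in 4 lists, in DKO-moderate and DKO-severe, with bars for the SE. Filled points passed an edgeR adjusted p of 0.05. In DKO-severe, 9 of 16 TCF/LEF partners lie below 0 and passed, and none passed above 0. Of 8 Tfh genes 5 rose and 2 fell, and of 8 genes restrained by BACH2 3 rose and none fell. Among all tested genes, 26.6% were called higher and 25.9% lower in DKO-severe against WT.

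The relatives and partners of BACH2 all passed the test in DKO-severe against WT, 5 lower and 3 higher of 8, where 25.9% of all tested genes were called lower and 26.6% higher. Bach1, the other BACH repressor, had 55.4 ± 4.25 CPM in WT, 28.3 ± 7.54 CPM in DKO-moderate and 23.9 ± 3.63 CPM in DKO-severe (SD, n = 4). Its log2 difference from WT was -0.97 in DKO-moderate (edgeR adjusted p = 0.00387) and -1.21 in DKO-severe (edgeR adjusted p = 0.000185). Among the small MAF partners, Mafk (-0.86) and Maff (-1.16) fell in DKO-severe, while Mafg rose by 1.23. The activator Nfe2l2 (-0.65), which encodes NRF2, and its inhibitor Keap1 (-0.37) fell, while Nfe2l1 rose by 0.56. Hmox1, a classical target that BACH1 represses, rose by 1.61 in DKO-severe (SE 0.61, edgeR adjusted p = 0.0433). In DKO-moderate it did not pass (0.81, edgeR adjusted p = 0.377). The part of Bach1 or of other cell types, macrophages included, in the Hmox1 level was not tested.

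Of 8 effector genes that BACH2 is known to restrain, 3 rose and none fell in DKO-severe against WT, a share near the 26.6% of all tested genes called higher there. Ccr4, a chemokine receptor of Th2 and skin-homing T cells, rose by 1.62 in DKO-moderate and 2.84 in DKO-severe, from 20.7 ± 2.33 CPM in WT to 147.9 ± 39.0 CPM (SD, n = 4). Nfil3 rose by 2.14 and 2.57, and Gadd45g by 1.07 in DKO-severe. Prdm1, Gata3, Klrg1, Ccr9 and Plagl1 did not pass in either group, with Gata3 at -0.05 and Klrg1 at 0.06 in DKO-severe.

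Around SATB1, the corepressor gene Hdac1 rose by 0.22 and the acetyltransferase gene Kat2b fell by 0.40 in DKO-severe against WT, and Ctbp1 (-0.11) did not pass. Of the partners and targets of E proteins, 6 of 8 could be tested, and 4 rose and none fell in DKO-severe against WT, where 26.6% of all tested genes rose. Gfi1, a transcriptional repressor, rose by 0.51 in DKO-moderate and 1.01 in DKO-severe (SE 0.12, edgeR adjusted p = 4.23e-05). Rag1, a recombinase gene of immature lymphocytes, had 300 and 579 reads in DKO-severe 1 and DKO-severe 2, the libraries highest in neutrophil genes, and at most 3 reads in any other library. Rag2 (15 and 25 reads in the same libraries) and Tal1 (at most 12 reads in any library) were the others, and Id1 did not pass (-0.68).

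Beside the members, 9 of 10 naive T cell genes fell in DKO-severe against WT, with a median of -2.0, where 25.9% of all tested genes fell. In DKO-moderate against WT 3 of 10 fell, with a median of -0.82, where 4.74% of all tested genes fell. Actn1 (-3.23), Ccr7 (-1.94) and Foxo1 (-1.54) were among those that fell in DKO-severe, and Klf2 did not pass (-0.45). All 6 proliferation genes rose in all 3 comparisons, where 26.6%, 12.3% and 9.41% of tested genes rose. Of 8 T cell identity genes, 1 rose and 4 fell in DKO-severe against WT, where 26.6% of all tested genes rose and 25.9% fell. In DKO-moderate against WT 3 rose and none fell, where 12.3% of all tested genes rose and 4.74% fell. Thy1 (-1.40), Cd247 (-1.20), Cd5 (-1.10) and Lck (-0.48) fell in DKO-severe, and the T cell receptor gene Cd3e rose (0.29), while Cd4 (0.18), Cd3g (0.23) and Cd3d (-0.06) did not pass. In DKO-moderate Cd4 (0.39), Cd3g (0.31) and Cd3e (0.29) rose.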

How the data were processed

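RNA sequencing was analysed from 12 libraries in 3 groups, with 1 mouse per library. The authors prepared directional libraries, aligned reads with STAR 2.7.11 to mm10, kept reads with a single position and deposited raw read counts per gene from htseq-count in reverse-stranded mode. The annotation behind the counts is not given in the sources used here. Unassigned reads, 18.5% to 23.7% of a library, stayed out of library sizes and tests.

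A gene was tested (16035 were) if any condition held 10 or more of its reads in sum. An edgeR 4.0.16 model of all 3 groups on TMM-scaled counts (quasi-likelihood test, R 4.3.3) gave p-values, which were adjusted by Benjamini and Hochberg's method across every tested gene and called under 0.05. Intervals are 95%. Exact permutation tests used TMM-scaled CPM. Log2 CPM used a prior count of 2. DESeq2 1.42.0, limma voom 3.58.1, other scalings, filters, samples and covariates, and each library left out in turn were alternatives. The fits were tested on simulated data with 200 changed genes, all in DKO-severe, raised and lowered in equal number. In the data 8428 genes were called in DKO-severe against WT, so the simulation does not show how the fits or scalings behave there. Other steps used Python 3.11.15. Libraries of a group differed beyond sampling noise (lowest chi-square over its degrees of freedom 21.6), so none was counted as a copy. Depth was 29254260 to 42133536 reads on genes.

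Coordinates and exon lengths came from GENCODE M21 (GRCm38) and promoter windows from RefSeq (GRCm38.p6). The named genes were the 8 members, the genes of the pathway, state and marker lists, and the 3 genes most like each member. Members and lists were chosen with earlier results of these data known. Marker lists of other cell types are given as summed CPM. Values of some list genes are not reported here. Methylation and single-cell data were not analysed here.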

Additional observations from a re-analysis of the deposited data

Results flagged for a closer look

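In 2 of 24 groups of 4 libraries (8 genes in 3 groups), a single library lay far from the others by Dixon's test, which flags about 1 in 20 groups by chance. Id2 had 338.7 CPM in DKO-severe 2, against 259.9 to 264.8 CPM in the other DKO-severe libraries. The same library had the highest summed level of 4 NK cell genes, at 103.2 CPM against 12.04 to 26.2 CPM in the other DKO-severe libraries, and of 9 B cell genes. In DKO-moderate, where Id2 was 0.86 above WT, the same NK cell genes summed to 28.9 to 41.3 CPM, against 13.9 to 26.5 CPM in WT. The part of NK cells in the Id2 level was not tested. With terms for B cell and neutrophil genes, Id2 in DKO-severe against WT was 0.61 and did not pass (edgeR adjusted p = 0.179). Tcf12 had 111.3 CPM in DKO-moderate 4, against 166.1 to 173.7 CPM in the other DKO-moderate libraries, and Tcf7 (939.6 CPM), Lef1 and Bach2 were also at their lowest of the group in that library.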

How the results depend on the processing

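The falls of Tcf7, Lef1, Satb1 and Bach2 in DKO-severe against WT kept their direction and passed under every alternative run. Over the fits that leave out 1 library they were -1.08 to -0.90, -2.51 to -2.28, -2.12 to -1.81 and -1.58 to -1.44. With terms for B cell and neutrophil genes, Id2 in DKO-severe against WT was 0.61 and no longer passed, so 0 members were called higher, Id3 was -0.15 and Tcf3 -0.03. In DKO-severe against DKO-moderate the same terms gave -0.75 for Tcf7, -1.14 for Lef1, -1.23 for Satb1 and -0.46 for Bach2, none passing (0 lower), with Id3 at -0.41 and Tcf3 at -0.03. The terms left 3201 and 155 genes called in these comparisons, against 8428 and 3217. Neutrophil genes were higher in every DKO-severe library than in any other, so these fits cannot separate the terms from the group. Under library size alone, Id3 (0.53) and Tcf3 (0.24, exact permutation p = 0.029) also passed in DKO-severe against WT. That made 3 of 8 members higher, where 5460 of 16035 tested genes were called higher. In DKO-severe against DKO-moderate, library size alone gave -0.50 for Bach2, without passing, and 0.004 for Id2. Library size alone moved the median of all genes by 0.178 in DKO-severe against WT, where 66.5% of calls were then higher against 50.7%. In DKO-severe against DKO-moderate 46.9% of calls were higher, and 59.6% with DESeq2's size factors, 59.9% with DESeq2 and 64.9% with library size alone. Bach2 in the latter comparison also failed to pass with DESeq2's size factors in edgeR (-0.55) and with only the groups compared (-0.61), and limma voom called 6126 genes there. The cause was not tested.

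Leaving out 1 library at a time gave 0.22 to 0.55 for Id3 and -0.29 to -0.18 for Tcf12 in DKO-severe against WT, with 1 to 2 members higher. The count of 2 came without DKO-severe 4, where 4099 of 15850 tested genes were called higher. In DKO-moderate against WT, Tcf3 ranged from -0.02 to 0.04 and Tcf12 from -0.17 to 0.02. In DKO-severe against DKO-moderate, Bach2 ranged from -0.75 to -0.48, Id2 from -0.21 to 0.05 and Id3 from -0.10 to 0.24. Genes called ranged from 1616 to 2920 in DKO-moderate against WT and from 1646 to 3670 in DKO-severe against DKO-moderate.

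Alternatives added after seeing the data were fits of the 8 libraries with Y-linked reads (at least 1000 reads on 4 genes) and fits without WT 3, DKO-severe 1 and DKO-severe 2. The first gave -0.53 for Lef1, -0.75 for Satb1, -0.59 for Bach2, 0.73 for Id2, -0.02 for Tcf3 and 0.03 for Tcf12 in DKO-moderate against WT, with 0 members higher and 0 lower and 386 genes called, and 0.13 for Id2 in DKO-severe against DKO-moderate. The second gave -0.01 for Tcf3 in DKO-severe against WT, and -0.65 for Bach2 (not passing), -0.16 for Id3 and -0.02 for Tcf3 in DKO-severe against DKO-moderate, with 2055 genes called.

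Library numbers did not pair the samples: residuals of libraries with the same number had a median correlation of -0.034, those with different numbers 0.013. A fit with the number as a replicate block called the same number of members (5, 4 and 4), with 7794, 2201 and 2321 genes called. No member had fewer than 1203 reads in any library.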
